A study of Homo sapiens with 4 samples.

Results

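Binding of the RNA-binding protein IGF2BP2 to transcripts of the nuclear pore and of the nuclear transport machinery was examined in 46 genes, which were listed by name and looked up by their Ensembl identifiers. Of these, 28 encode proteins of the pore (nucleoporins) and 18 encode transport receptors (importins and exportins) or the small GTPase RAN. They were read against the 20037 protein-coding genes of a RefSeq gene table. IGF2BP2 binding had been mapped by iRIP-seq, in which RNA is crosslinked to protein by UV light, immunoprecipitated with anti-IGF2BP2 and sequenced. All libraries came from Jurkat cells, a human T-cell acute lymphoblastic leukemia line, with no treatment given in the labels and a single condition. Peak lists of 2 IGF2BP2 iRIP libraries were analysed, with 145715 peaks in replicate 1 and 137934 in replicate 2, and the 2 input libraries were not analysed here. The labels do not say whether both iRIP libraries came from separate cultures, so the spread between them may be technical.

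The nuclear pore is the channel through which all traffic between nucleus and cytoplasm passes. Its scaffold is built of rings (the Y complex and the inner ring) anchored in the nuclear envelope by membrane nucleoporins, and its channel is lined by nucleoporins rich in phenylalanine and glycine. A basket faces the nucleus, and filaments where mRNA leaves the pore face the cytoplasm. Importins and exportins carry cargo through the channel and bind or release it according to whether RAN holds GTP or GDP. IGF2BP2 binds mRNA and is known as a reader of N6-methyladenosine, in which role it has been tied to the stability of its target transcripts.

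For a few members, sequence from the gene start lay wholly or partly within a peak and is shown as an example of the sequence under a peak. The peaks are given in bins of 50 nt, so no base is marked as bound. The stretches below are transcribed bases 21 to 50 of RefSeq (GRCh38.p14), read 5′ to 3′ on the strand of the gene. For RAN and KPNA2 they are counted from the gene start, and for SEC13 from another annotated start further inside the gene. The capitals mark GGAC, the core of the m6A consensus, and any further match to GGAN, the wider IGF2BP2 consensus. RAN and KPNA2 are shown because their peaks covered all 30 bases, and SEC13 because 21 of its 30 bases lay in a peak and no match was found.
RAN, chr12:130872086-130872115, plus strand: ttccagcctcagtcGGACgggcgcGGAGac
KPNA2, chr17:68035755-68035784, plus strand: cgaggtGGACcctttgaacgcagtcgccct
SEC13, chr3:10320992-10321021, minus strand: agggtgaaggccacggtcgcggccttcacg
All 3 of these peaks were from replicate 2. The RAN peak (chr12:130872050-130872150) was 5.5 tags high, the KPNA2 peak (chr17:68035750-68035850) 7 tags and the SEC13 peak (chr3:10321000-10321050) 6 tags. In replicate 1, KPNA2 also had a peak in this region of 5 tags that began past the printed stretch. GGAC is held by 12.8% and GGAN by 51.2% of all 22199 such start windows. A match is a description of these letters and not a mapped binding site.

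A peak was assigned to a gene when it lay mainly in its coding sequence (CDS), untranslated regions (UTR), noncoding exons or introns, and is called a sense peak. The height of a peak is its deposited signal in tags. Fractions occur on peaks longer than 50 nt, such as 16.5 tags at chr3:13399700-13399800 in replicate 2. Heights of longer peaks may thus be means over bins, and heights of peaks of unlike length may not be comparable. The lists start at 4 tags in replicate 1 and 5 tags in replicate 2. Absence of a peak means only that none passed the authors' caller and their removal of peaks that an input peak overlapped. The level of each mRNA was not measured here, and a larger number of peaks through more RNA or through more binding of each molecule cannot be told apart. Of 8 T-cell and Jurkat marker genes in the gene table, 7 had a sense peak in both libraries, with 80 peaks in all in replicate 1 and 98 in replicate 2, and CD28 had peaks in replicate 2 only. Of 9 markers of B, erythroid, myeloid, liver and epithelial cells, KRT8 was the one with a peak in both libraries, and the whole list held 3 peaks in replicate 1 and 6 in replicate 2. The defining genes HBB, LYZ, ALB and EPCAM had none.

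Most of the members carried IGF2BP2 peaks in both libraries, and every transport receptor did at the heights listed. In replicate 1, 41 of 46 members had a sense peak, where 56.7% of all protein-coding genes had one. In replicate 2 the count was 44 of 46, where the share of all genes was 55%. In both libraries 40 of 46 had one (87.0%, 95% Wilson interval 74.3 to 93.9), against 45.6% of all protein-coding genes. Among genes between 5.613 and 122.545 kb in length, the range of all members but RANBP2, the count was 39 of 45 against 45.5%. By class, 18 of 18 receptors and RAN (lower bound 82.4%) and 22 of 28 pore genes (78.6%, interval 60.5 to 89.8) had peaks in both libraries, and these intervals overlap. With a shared floor of 5 tags in both lists, 31 members kept peaks in both libraries, among them 14 of 18 receptors and 17 of 28 pore genes. With exonic peaks only, 32 members did, among them 13 receptors and 19 pore genes. The share of all protein-coding genes is not given for either setting, and 45.6% is not a like background for them. The background holds genes that Jurkat cells may not express, and its part in the difference was not tested. When peaks were placed by position and strand in place of the authors' identifiers, 41 of 46 members had one in both libraries, against 49.3% of genes of known strand.

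The 6 members outside this set were all pore genes, and none of them had more than a few peaks. NUP35, an inner ring protein, had no peak in either library and no identifier in the lists. NUP37 and NUP43, small subunits of the Y complex, each had no peak in replicate 1 and a single peak of 5 tags in replicate 2. NUP62 and NUP54 form, with NUP58, the complex that lines the central channel. NUP62 had no peak in replicate 1 and 1 peak of 6 tags in its 5′ UTR in replicate 2. Its interval lies within that of IL4I1 on the same strand, so reads there may be shared. NUP54 was the reverse case, with 1 peak of 4 tags in replicate 1 and none in replicate 2. RAE1, an mRNA export factor that binds NUP98, had 4 peaks in replicate 2, the highest of 7 tags, and none in replicate 1. All 5 that had peaks were thus close to the lowest listed height, where a gene's presence in one list and absence from the other differs by few tags.

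**Figure D1:**
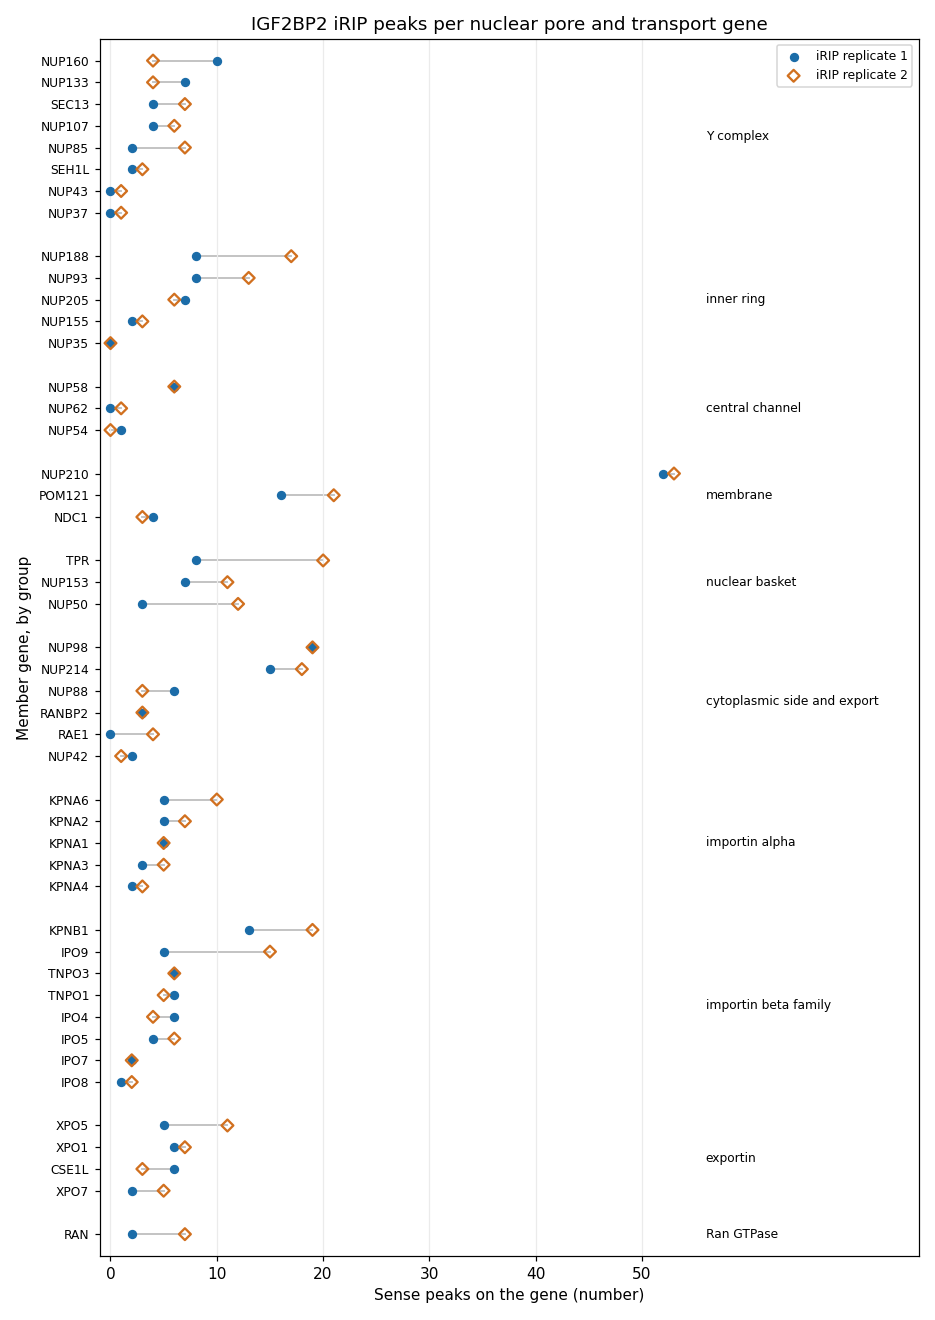
Number of sense peaks on each of the 46 members (x axis) in replicate 1 (filled circles) and replicate 2 (open diamonds), with members grouped by their place in the pore or transport system; a grey line joins both values of a gene. NUP210 stands at 52 and 53 peaks and no other member has more than 21.

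The members held 280 sense peaks in replicate 1 and 369 in replicate 2 (mean 324.5 ± 62.9, SD, n = 2), with 196 and 247 of them on pore genes and 84 and 122 on receptors and RAN. Replicate 2 had more peaks on 29 members and replicate 1 on 10, with 7 equal. Across the 46 members the peak numbers of both libraries had a Pearson correlation of 0.914 and a Spearman correlation of 0.728. Without NUP210 these were 0.783 and 0.709. These are descriptions across genes, which share their libraries and their length, and the Spearman correlation of a member's mean peak number with its length was 0.368.

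NUP210, a membrane glycoprotein of the pore, carried more peaks than any other member. It had 52 in replicate 1 and 53 in replicate 2, or 5.00 and 5.09 per 10 kb of gene. The gene spans 104.088 kb on the minus strand of chromosome 3. Of 1445 protein-coding genes within 20% of its length, 1434 (99.2%) had a lower mean number of peaks, and their median was 3. The peaks were mainly coding, with 29 of 52 in the CDS in replicate 1 (55.8%, interval 42.3 to 68.4) and 36 of 53 in replicate 2 (67.9%, interval 54.5 to 78.9). The positions were shared between libraries more often than for the rest of the members: 29 of the 52 peaks (55.8%) of replicate 1 were overlapped in replicate 2, and 57 of the 228 peaks (25%) of the other members. NUP210 peaks were also taller, with 34 of 52 at 5 tags or more in replicate 1, against 81 of 228 on the other members. Of all 115 member peaks of that height in replicate 1, NUP210 included, 59 (51.3%) were overlapped. The part of height in the difference was not tested. The comparison itself has no test, since the peaks of a gene are not replicates.

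The tallest overlapping pair of any member was at chr3:13360250-13360350 in the CDS of NUP210, 60.0 kb from the gene start, with 14 tags in replicate 1 and 22 in replicate 2. A further CDS pair at chr3:13399700-13399800 had 13 and 16.5 tags. In another, a replicate 1 peak of 15 tags at chr3:13353900-13353950 met a longer replicate 2 peak, chr3:13353900-13354100, of 10 tags. The same replicate 2 peak also overlapped a replicate 1 peak of 5 tags at chr3:13354000-13354050. The highest NUP210 peak of all, at chr3:13351850-13351900 with 27 tags in replicate 2, had no partner in replicate 1 and was assigned mainly to a noncoding exon. Of the member peaks that reached 10 tags, NUP210 supplied 7 of 12 in replicate 1 and 21 of 43 in replicate 2.

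The other membrane nucleoporins differed from one another. POM121 had 16 peaks in replicate 1 and 21 in replicate 2, with a CDS pair of 6 and 15 tags at chr7:72926800-72926850. POM121C, a near-identical copy of this gene that is not a member, had 17 and 19 peaks. The authors kept only uniquely mapped reads, so peaks may be missing from both genes where their sequences match. NDC1, which anchors the scaffold in the membrane, had 4 and 3 peaks, none over 5 tags and none in an overlapping pair.

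In the scaffold, peaks were fewer and mostly low. The 8 genes of the Y complex, the outer ring, held 29 peaks in replicate 1 and 33 in replicate 2, and 3 of the 8 had an overlapping pair. NUP133 had 7 and 4 peaks, with its pair at chr1:229508050-229508100, at 0.266 kb from the gene start, reaching 10 tags in replicate 1 and 8 in replicate 2. NUP160 had 10 peaks in replicate 1 and 4 in replicate 2 with no overlap between them. SEC13, which also serves in the coat of secretory vesicles, was the Y complex gene with the most peaks for its length, at 1.98 per 10 kb in replicate 1 and 3.47 in replicate 2 (4 and 7 peaks). In the inner ring, NUP188 had 8 and 17 peaks, 5 and 13 of them in the CDS. NUP93 had 8 and 13 peaks and a CDS pair of 6 and 12 tags at chr16:56805500-56805550.

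Of the nuclear basket genes, all 3 had more peaks in replicate 2. TPR, the filament protein of the basket, had 8 in replicate 1 and 20 in replicate 2, and 6 of the 8 were overlapped in replicate 2. NUP153, which holds the basket to the pore, had 7 and 11, with a pair of 10 and 6 tags at 0.65 kb from the gene start. NUP50, a mobile basket protein that binds importin alpha, had 3 and 12 peaks. Its one pair, at chr22:45168150-45168200, was 5 tags high in replicate 1 and 21 in replicate 2, the widest gap among the best pairs of the members.

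On the cytoplasmic side, NUP98 and NUP214 carried most of the peaks. NUP98, whose gene also makes the NUP96 scaffold protein from the same transcript, had 19 peaks in each library. NUP214, a filament protein that recruits export factors, had 15 and 18 peaks, and 11 and 12 of them were in the CDS. Its highest pair, at chr9:131150600-131150650, had 10 and 8 tags. NUP88, its binding partner, had 6 and 3 peaks, and the pair at chr17:5419350-5419400, 0.287 kb from the gene start, had 7 and 11 tags. RANBP2, the SUMO ligase of the cytoplasmic filaments, had 3 peaks in each library. Its RefSeq interval of 1122.82 kb takes in other genes, among them its near-copy RGPD5, so its number per length is not comparable with the others. Since only uniquely mapped reads were kept, RANBP2 peaks may also be missing where the sequence matches that copy. In the central channel NUP58 alone had peaks in both libraries, 6 in each.

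Among the transport receptors, KPNB1, the importin beta that carries most classical cargo, had the most peaks, with 13 in replicate 1 and 19 in replicate 2. Of 2039 genes within 20% of its length, 1961 (96.2%) had fewer on average. Its tallest pair lay in the 3′ UTR, at chr17:47682400-47682450, with 12 and 17 tags, whereas those of NUP210 lay in the CDS. A further pair in the 5′ UTR, starting at 47650050 on the same chromosome, had 7 and 11.3 tags. TNPO1, the receptor for many RNA-binding proteins, had 6 and 5 peaks and a pair of 11 and 12 tags at chr5:72848350-72848400. That pair was assigned mainly to intron, with 0.32 of its length in CDS. IPO9, an importer of histones, had 5 peaks in replicate 1 and 15 in replicate 2, with a pair of 6 tags in both at 0.068 kb from the gene start. At the low end, IPO7 had 2 peaks in each library and IPO8 had 1 and 2, with no pair on either gene.

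**Figure D2:**
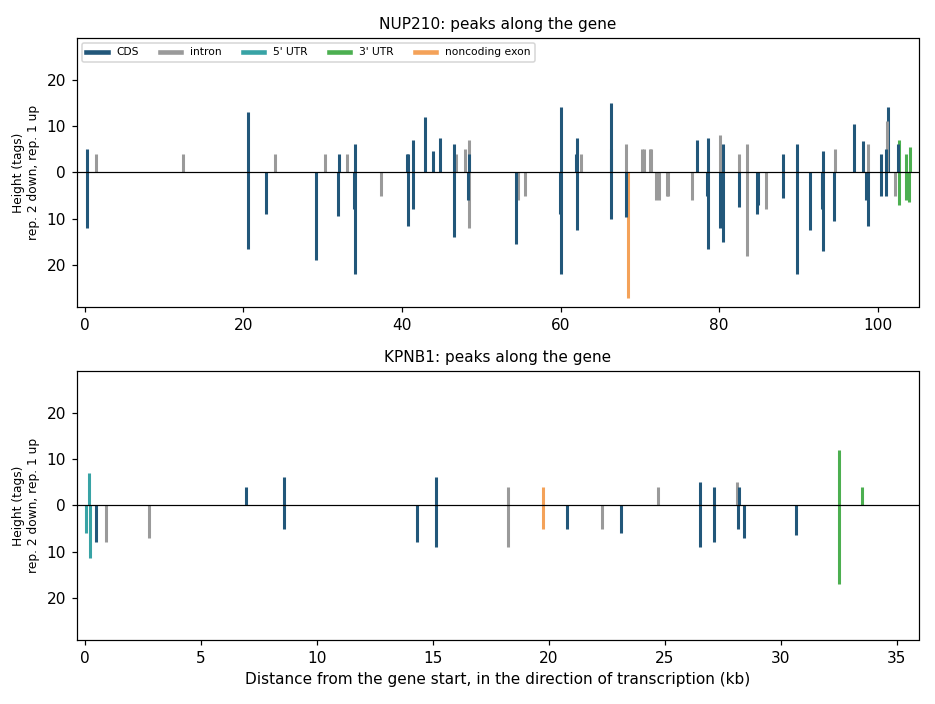
Height in tags (y axis, replicate 1 upward and replicate 2 downward) of each sense peak along NUP210 and KPNB1 against its distance from the gene start in kb (x axis), coloured by main region. NUP210 peaks run along most of the gene but are sparse in its first 10%, with 2 of 52 in replicate 1 and 1 of 53 in replicate 2. Of its peaks, 7 in replicate 1 and 21 in replicate 2 reach 10 tags. The tallest pair of KPNB1 stands near its 3′ end with 12 and 17 tags.

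RAN, KPNA2 and IPO4 are short genes and stood highest per length among the receptor class by the mean of both libraries. KPNB1, at 3.65 and 5.34 peaks per 10 kb, was above RAN in replicate 1 and above IPO4 in replicate 2. RAN had 2 peaks in replicate 1 and 7 in replicate 2, or 3.56 and 12.5 per 10 kb, with highest peaks of 5 and 15 tags. Both of its replicate 1 peaks were overlapped in replicate 2. KPNA2, an importin alpha known to be abundant in dividing cells, had 5 and 7 peaks, or 4.50 and 6.29 per 10 kb, and a CDS pair of 5 and 16 tags at chr17:68037350-68037400. IPO4, an importer of histones and ribosomal proteins, had 6 and 4 peaks, or 6.98 and 4.65 per 10 kb, but none overlapped. The other importin alpha genes KPNA1, KPNA3, KPNA4 and KPNA6 had 2 to 5 peaks in replicate 1 and 3 to 10 in replicate 2, and KPNA1 was the one of these with a pair.

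The 4 exportin genes had 19 peaks in replicate 1 with 3 in the CDS, and 26 in replicate 2 with 9 in the CDS, of which 7 were on XPO5. XPO1, the main exporter of proteins with a leucine-rich export signal, had 6 peaks in replicate 1 and 7 in replicate 2, none mainly in the CDS and none shared. CSE1L, which returns importin alpha to the cytoplasm, had 6 and 3 peaks and the one exportin pair, of 6 and 5 tags. XPO5, which exports microRNA precursors, had 5 and 11 peaks and no pair, and XPO7 had 2 and 5.

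Per length, both classes lay above the genes of the table as a whole. The median for pore genes was 0.766 peaks per 10 kb in replicate 1 and 0.941 in replicate 2, and for receptors with RAN 0.672 and 0.721. The difference of medians, pore minus receptors, was 0.157 ± 0.0886 (SD, n = 2). It is small beside the spread among genes, since the quartiles of the receptors were 0.375 and 1.14 in replicate 1. All protein-coding genes had medians of 0.176 and 0.132, and those with a peak in both libraries 0.600 and 0.633.

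By region, member peaks lay in the CDS more often than the peaks of all named protein-coding genes did. In replicate 1, 121 of 280 were mainly in the CDS (43.2%, interval 37.5 to 49.1), against 24.4% of 60191. In replicate 2 it was 180 of 369 (48.8%, interval 43.7 to 53.9), against 30.2% of 65166. The mean share over both libraries was 46.0% ± 3.94 (SD, n = 2). The share rises with height in all genes, and among peaks that reached 10 tags the members had 8 of 12 and 33 of 43 in the CDS, against 61.1% and 62.1% for all genes. A peak mainly in the CDS in both libraries was found for 29 of 46 members, where 17.3% of all genes had one. Introns held 136 member peaks (48.6%) in replicate 1 and 154 (41.7%) in replicate 2, against 64.6% and 57.9% for all named genes. Peaks that touched both CDS and intron were 48.2% and 49.3% of member peaks, against 18.9% and 24.8%.

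Pore genes and receptors differed in CDS share in the same direction in both libraries, but not in intron share. The CDS share was 46.4% and 53.8% for pore genes and 35.7% and 38.5% for receptors. Without NUP210 the pore values were 43.1% and 50%. The intron share was 49.5% for pore genes and 46.4% for receptors in replicate 1, and 38.9% and 47.5% in replicate 2, so that its order turned. The 5′ UTR held none of the 196 pore peaks in replicate 1 and 6 of 247 in replicate 2, and 6 of 84 and 8 of 122 on receptors. Peaks within 1 kb of the gene start were 5.10% and 6.88% for pore genes and 8.33% and 14.8% for receptors, where all genes had 6.79% and 7.74%. Peaks of a gene are not independent, and with 1 condition and 2 libraries the difference between the classes was not tested.

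**Figure D3:**
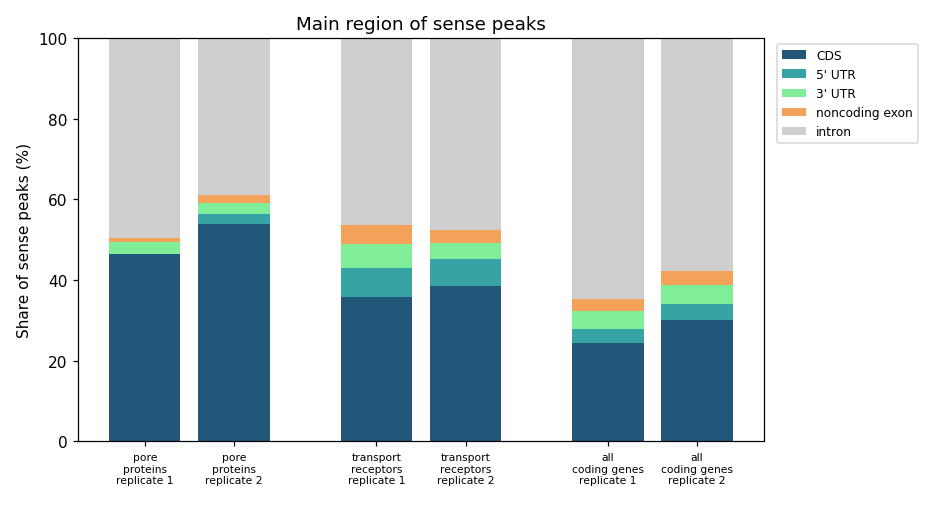
Share of sense peaks (y axis, percent) by the main region of each peak, for pore genes, transport receptors with RAN and all named protein-coding genes, in each replicate. CDS takes 46.4% and 53.8% of pore peaks, 35.7% and 38.5% of receptor peaks and 24.4% and 30.2% of the peaks of all genes.

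Positions recurred between libraries for 25 of 46 members (54.3%, interval 40.2 to 67.8), where 15.5% of all protein-coding genes had such an overlapping pair. Within the length range the count was 24 of 45, against 16.6%. The pairs were on 16 of 28 pore genes and 9 of 18 receptors. Of the replicate 1 peaks of members, 86 of 280 (30.7%, interval 25.6 to 36.3) were overlapped in replicate 2, against 19.7% for all named genes. Of the replicate 2 peaks it was 85 of 369 (23.0%), against 18.0%. Without NUP210 the members had 25% and 18.0%. CDS peaks recurred more than intron peaks, at 43.0% against 17.6% in replicate 1 and 31.1% against 12.3% in replicate 2. For all named genes the CDS shares were 45.8% and 35.1%, above those of the members, and the intron shares 8.64% and 8.34%, below them. Pairs within 1 kb of the gene start were found on 8 members: IPO9, KPNA2, KPNB1, NUP133, NUP153, NUP210, NUP88 and RAN. They made up 9.30% of the overlapped member peaks of replicate 1 and 9.41% of those of replicate 2, where all named genes had 13.8% in each library. Peaks that reached 10 tags in each library, at any position, were found for 4 of 46 members (NUP210, NUP214, KPNB1 and TNPO1), against 3.85% of all genes, and the members' interval of 3.43 to 20.3% includes that background.

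**Figure D4:**
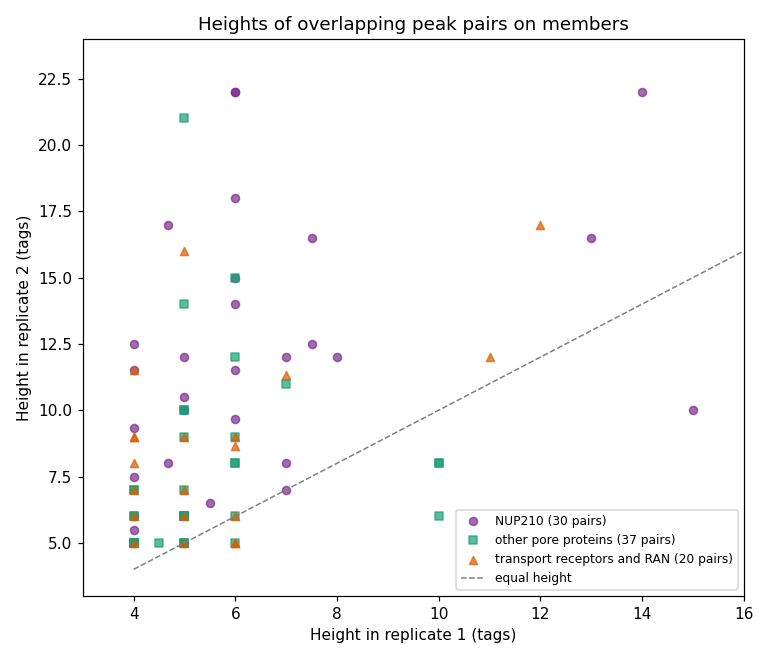
Height in replicate 2 (y axis, tags) against height in replicate 1 (x axis, tags) for each overlapping peak pair on a member, by class; the dashed line marks equal height. The tallest pairs, NUP210 at 14 and 22 tags and KPNB1 at 12 and 17, are higher in replicate 2.

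Other genes of nuclear transport also mostly had peaks in both libraries. Of 42 listed genes (remaining pore proteins and receptors, the Ran cycle, mRNA export, SUMO enzymes and the lamina), 34 had a sense peak in both libraries (81.0%, interval 66.7 to 90.0), 6 in one library and 2, KPNA7 and THOC3, in neither. The background of 45.6% applies here too. An overlapping pair was found on 20 of the 42 (47.6%), against 15.5% of all protein-coding genes. RANBP1, which helps RAN hydrolyse GTP, had 3 and 9 peaks, the highest of 29 and 38 tags, above any peak of the members. ALYREF, which loads export factors on mRNA, had 6 peaks in each library with highest peaks of 11.5 and 12 tags. TNPO2, the close relative of TNPO1, had 17 peaks in replicate 1 and 23 in replicate 2, more than TNPO1 in both. NXF1, the mRNA export receptor, had 3 and 16, and RANGAP1, which activates the GTPase of RAN, had 10 and 27.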

How the data were processed

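IGF2BP2 iRIP-seq of Jurkat cells was analysed from the authors' peak lists, 1 for each of 2 iRIP libraries. The submitters' processing notes name GRCh38, TopHat2 and bcl2fastq. According to the methods, the authors kept uniquely mapped reads, called peaks in each library on its own with the ABLIRC strategy and discarded those that an input peak overlapped. The annotation behind the regions is not given in the sources used here. Peak heights are deposited as a signal in tags, not adjusted for depth, and the depth of the libraries is unknown. The p-value of each peak is also deposited and was used only as a filter.

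A peak took the region that covered most of its length. In a tie, found for 8 of 649 member peaks, the region listed first was taken. Peaks that were mainly antisense or intergenic were left out. Member identifiers were written down by hand and checked by position and strand against RefSeq (GRCh38.p14), and 44 of 46 were named alike. The exceptions were NUP35, without a peak, and NUP62, inside the interval of IL4I1. Other identifiers were named by the same rule, which asks that at least 80% of their CDS and UTR peaks lie in a single gene with a margin of 1000 nt. Where an identifier had no such peak, all its sense peaks were used. The narrowest gene that met the rule was taken, and each symbol kept a single identifier. The rule gave 13239 of 20428 identifiers the symbol of a protein-coding gene. The rule and the overlap step were tested on simulated data. Coordinates are those of the deposited lists, in 50 nt bins, and were read as half-open. Peaks overlapped when they shared at least 1 nt on the same strand and gene. Intervals for shares are 95% Wilson intervals and cover counting error only. The members are not replicates and no test was made over them. One listed cell type marker is not reported here. Motif matches within peaks were not analysed here, since only start windows of genes were at hand.

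The members and the other lists were chosen with earlier results of these data known. Values are given for the 8 members with the highest overlapping pair (by the lower height), the 3 of each class with the most and the fewest peaks per 10 kb, members with a peak in 1 library or none, and RAN. Further members were named for their role after their values were seen. Analyses used Python 3.11.15, pandas 2.3.3, numpy 2.4.6, scipy 1.17.1 and matplotlib 3.10.9.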

Additional observations from a re-analysis of the deposited data

How the results depend on the processing

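Raising the minimum height to 10 tags left 4 members with a peak in both libraries (2 pore genes and 2 receptors). The mean was 27.5 member peaks and the CDS share 71.7%. An overlapping pair remained on 3 members, and the share of all protein-coding genes with one at this height is not given. Most genes of each class had no such peak, so both class medians per 10 kb were 0 and their difference of 0 does not compare the classes. The overlap share was 41.7% where both peaks had to reach 10 tags. With a partner of any listed height, 8 of 12 replicate 1 peaks were overlapped. With exonic peaks only, the mean number was 179.5 and the CDS share, whose denominator then holds no introns, was 83.9%. The class difference in peaks per 10 kb was 0.279 both with any peak on the strand in the gene interval and without the members that share their interval. The overlap share was 23.0% when counted from replicate 2 and 25% without NUP210. Leaving out either library gave 280 to 369 member peaks, a CDS share of 43.2 to 48.8% and a class difference of 0.0943 to 0.220. Under the remaining settings values moved by less than the spread or counts by less than 1.5 times, and none changed sign; a p-value filter of 0.01 removed no peak. Leaving out NUP210, and for the CDS share the members with shared intervals, was chosen after seeing the data. No paired analysis was possible because the inputs, which share replicate numbers with the iRIP libraries, were not analysed here. CDS peaks per kb of coding sequence were not computed, as coding lengths were not at hand. Most member peaks lie near the lowest listed height (57.9% and 42.3% exactly at it), which limits what absence from a list says.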

Other observations

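Along the length of the genes, the first 10% held 12.5% of member peaks in replicate 1 and 16.5% in replicate 2, against 13.8% and 14.3% for all named genes, and the last 10% held 11.1% and 8.40%, against 12.1% and 12.4%.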
